A study of Rattus norvegicus with 39 samples.

Results

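Of 39 bulk RNA libraries from rat ventral tegmental area (VTA), 4 carried little messenger RNA of dopamine neurons and no excess of the lateral hypothalamic peptide gene Pmch. They were chosen by measured values. The dopamine transporter gene Slc6a3 was under 240 CPM (a gene's value scaled by the column total of its library) and Pmch, which encodes the precursor of melanin-concentrating hormone, was under 500 CPM. They are set beside the 26 comparison libraries that had Slc6a3 of 500 CPM or more and Pmch under 50 CPM, and the remaining 9 libraries fell in neither class. The 4 are female D30 replicate 2, female saline replicate 5, male D1 replicate 8 and male saline replicate 8. Because Slc6a3 and Pmch of these same libraries chose the members, every difference from the comparison libraries is given as a description with no test.

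The study compared adult rats (postnatal day 60 or older) of both sexes after intravenous self-administration of morphine or saline. Saline rats were sampled 1 day after their last session, D1 rats at day 1 of morphine abstinence and D30 rats at day 30. The 6 groups held 4 female D1, 5 female D30, 6 female saline, 9 male D1, 7 male D30 and 8 male saline libraries. Tissue was microdissected as punches from block-cut sections, and the labels call the samples biological replicates without saying whether each came from its own rat, so the p-values below speak of sample-to-sample spread, which may be partly technical.

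The VTA lies at the base of the midbrain, medial to the substantia nigra. Its dopamine neurons make dopamine with tyrosine hydroxylase (Th), load it into vesicles through Slc18a2 and take it back up through Slc6a3. The red nucleus, with large glutamatergic projection neurons, lies above it, the supramammillary, mammillary and subthalamic territories lie in front, the interpeduncular nucleus lies below the midline, and the pedunculopontine and raphe nuclei lie behind. A punch of this area can take in some of these neighbours. In bulk tissue, fewer cells of a type and less RNA per cell cannot be told apart.

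Depth did not set the 4 apart. Their totals were 23.6, 27.3, 25.3 and 21.7 M counts, in the order female D30 replicate 2, female saline replicate 5, male D1 replicate 8 and male saline replicate 8, against 15.2 to 63.1 M in the comparison libraries (median 23.4 M). Values of 4 libraries below keep this order. The ribosomal RNA gene Rn28s made up 2.63% of female saline replicate 5, above the highest comparison library (0.58%), and 0.07% to 0.45% of the other members. By TMM, which scales libraries so that most genes match, male saline replicate 8 had a factor of 0.82 against 0.86 to 1.08 in the comparison libraries. Its median gene lay 0.21 below the comparison median on the log2 scale, and that of male D1 replicate 8 lay 0.15 above it. Library names of the 4 were 373, 484, 451 and 468, what these numbers stand for is not stated in the labels, and all 7 libraries with Slc6a3 under 240 CPM had names from 373 to 534, with none among the 21 libraries of lower number.

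Slc6a3 stood at 139 CPM in female D30 replicate 2, 38 in female saline replicate 5, 185 in male D1 replicate 8 and 161 in male saline replicate 8, against 646 to 1629 in the comparison libraries (median 1162). Th, which the rule did not use, stood at 194, 64.6, 273 and 459 CPM in the same order, against 1141 to 3074 (median 2096). The separation in Slc6a3 was fixed by the rule. All 4 libraries were also below every comparison library for Th. Pmch was 8.75, 7.80, 30.0 and 4.22 CPM against 4.42 to 38.7, so the groups overlapped. The nearest libraries outside the limits were male saline replicate 7, with Slc6a3 of 184 CPM but Pmch of 1661, and male D1 replicate 9, with Slc6a3 of 314 CPM. Just below the comparison class lay female saline replicate 6 with Slc6a3 of 470 CPM, and just inside it female D30 replicate 4 with 646.

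**Figure D1:**
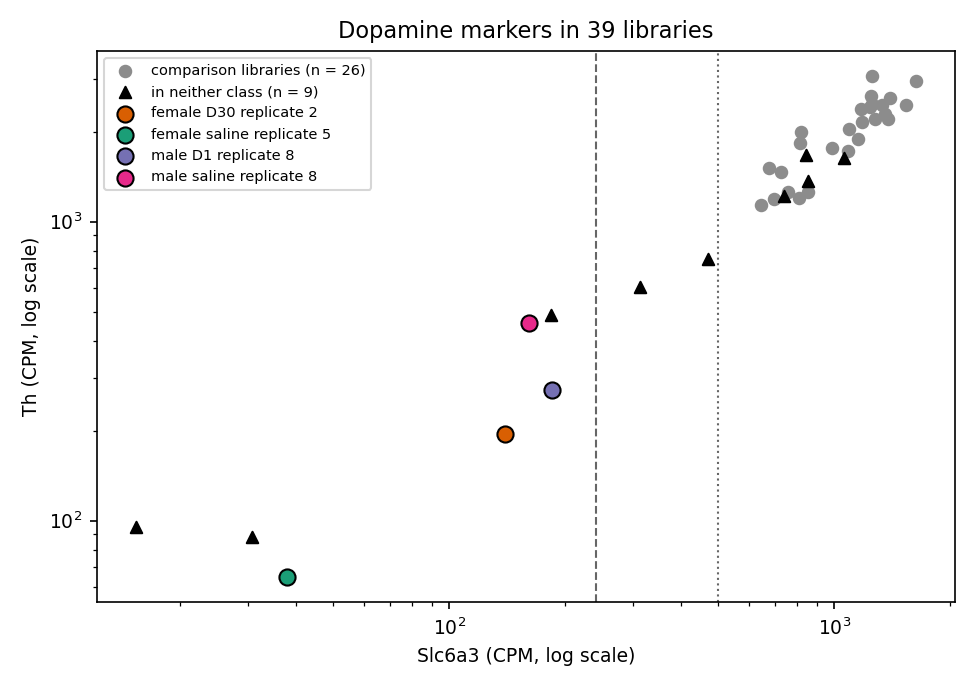
Slc6a3 (x axis) against Th (y axis) in CPM on log scales, 1 point per library. Dashed and dotted lines mark Slc6a3 of 240 and 500 CPM. The 4 dopamine-poor libraries are at or below 185 CPM of Slc6a3 and 459 CPM of Th, and the 26 comparison libraries start at 646 and 1141 CPM.

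Over the 22493 genes tested, 232 (1.03%) were lower in each of the 4 than in every comparison library, and 76 (0.338%) were higher in each of the 4. The rule used this contrast, so nothing is read from those shares. The lower genes differed more in size. Their median ratio of mean CPM was 2.53, with 164 of 232 at 2-fold or more, while the median ratio of the 76 higher genes was 1.59, with 18 at 2-fold or more. The median gene of all those tested differed by 0.01 on the log2 scale. The count of higher genes was 135 without female D30 replicate 2, 217 without male D1 replicate 8 and 246 without male saline replicate 8, and that of lower genes was 498 without male D1 replicate 8.

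Genes of dopamine neurons were among the named lower genes. Of the 20 on the dopamine neuron list besides Slc6a3, which the rule used, 13 were lower in all 4, 0 were higher in all 4, and the median log2 ratio was -2.29. Chrna6, a nicotinic receptor subunit typical of dopamine neurons, was at 22.4, 7.58, 32.6 and 37.3 CPM against 131 to 381 (median 247). The mean was 25 ± 13.2 CPM (SD, n = 4) against 243 ± 66.3 (SD, n = 26), a ratio of 9.74. Pitx3, a transcription factor of midbrain dopamine neurons, was at 5.42, 1.94, 5.56 and 11.2 CPM against 28.3 to 75.2 (median 46.3).

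The other subunit and enzyme genes differed by similar ratios. Slc18a2, the vesicular monoamine transporter, had a ratio of 7.70, Ddc, the second enzyme of dopamine synthesis, 7.11, Gch1, which makes the cofactor of Th, 7.19, Chrnb3, a partner subunit of Chrna6, 9.22 and Chrna5 8.03. The peptide gene Cck, co-expressed by many dopamine neurons, was at 115, 43.0, 90.5 and 275 CPM against 420 to 1691 (median 1008). The antioxidant enzyme gene Gpx2 (10.4-fold), the zinc transporter gene Slc39a4 (9.95-fold), the growth factor gene Ntf3 (7.98-fold), Bmp5 (7.01-fold) and Grem1, which encodes a BMP antagonist (6.69-fold), completed the 15 named lower genes with Slc6a3 and Th. None of these 15 was lower in the 4 than in all 35 other libraries, since male D30 replicate 6, which had low Slc6a3 and high Pmch, reached values within or below those of the 4 for each.

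Dopamine genes did not vanish equally in the 4. Female saline replicate 5 had the lowest value of the 4 for each of Slc6a3, Th, Slc18a2, Ddc and Chrna6. Male D1 replicate 8 held Lmx1a, a developmental regulator of dopamine neurons that subthalamic and supramammillary neurons also express, at 17.3 CPM, inside the comparison range of 7.92 to 23.4, while the other members held 4.39, 0.62 and 5.09 CPM. Foxa1 in that library was 13.3 CPM, also inside its comparison range of 13.1 to 33.2.

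Sncg, which encodes gamma-synuclein and is on the dopamine list, went the other way. It was at 219, 740, 83.1 and 1170 CPM against 196 to 593 (median 423), so female saline replicate 5 and male saline replicate 8 were above every comparison library and male D1 replicate 8 below every one. Without Sncg and Slc6a3, the list summed to 1079, 570, 1175 and 1487 CPM against 3606 to 8765.

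Receptor and neuronal genes outside the dopamine list were also lower in all 4. Syt1, a synaptic vesicle calcium sensor found in most neurons, was at 187, 97.1, 229 and 130 CPM against 376 to 762 (median 529). Among 6 interpeduncular markers, Chrna5 and Chrna3 were lower in all 4, and both nicotinic subunits are also expressed by dopamine neurons. Chrna2, which marks the interpeduncular nucleus, overlapped between the groups (0.33 to 1.82 CPM against 0.09 to 2.23).

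The named genes higher in all 4 had ratios from 1.83 to 2.63. Lamp5, a lysosome-associated protein of certain forebrain and brainstem neurons, was at 36.9, 34.4, 25.7 and 23.6 CPM against 5.27 to 21.6 (median 10.7), a ratio of means of 2.63. Kcnc1, the Kv3.1 potassium channel of fast-firing neurons, was at 115, 133, 96.2 and 96.5 CPM against 29.9 to 77.9 (median 47.4). Its mean was 110 ± 17.6 CPM (SD, n = 4) against 50.4 ± 13.7 (SD, n = 26). Both genes were above every comparison library in each of the 4, and also above the 9 libraries in neither class, which reached 19.6 CPM for Lamp5 and 90.4 for Kcnc1.

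Scn8a, the Nav1.6 sodium channel of axon initial segments, was at 48.8, 66.0, 41.9 and 43.3 CPM against 11.8 to 41.4 (median 22.7). Male D1 replicate 8 was at 1.01 times the highest comparison library, so the separation there was narrow. Kcnab3, an accessory subunit of potassium channels, was at 43.7, 56.1, 41.7 and 42.3 CPM against 12.4 to 34 (median 19.4). Further named genes were Camk1d and Camkk1, kinases of the calcium and calmodulin pathway (ratios 2.53 and 1.86), Stac2, an adaptor of voltage-gated calcium channels (2.34), Grin3b, an NMDA receptor subunit (2.11), Zmat4 (2.22), Bag2, a co-chaperone (2.06), Ankrd35 (2.02), Plaat1 (1.98), Sgca (1.93), Slc35f4 (1.84) and Chst15, a sulfotransferase (1.83).

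Of the 76 higher genes, 70 were protein-coding, beside 16960 of the 22493 genes tested. Of the same 76, 3 were named as potassium channel genes (Kcn, of 87 such symbols tested) and 1 as a sodium channel gene (Scn, of 12). The 232 lower genes held 5 Kcn and 1 Scn gene, so channel genes lay on both sides. Against all 35 other libraries, 15 of the 76 remained above every one, among them the named genes Lamp5, Stac2, Kcnab3, Kcnc1 and Grin3b. The general neuron list did not go 1 way, with 3 of 7 ratios above 0, a median log2 ratio of -0.11 and Syt1 lower in all 4. Its sums were 5881, 9488, 5415 and 13292 CPM against 4759 to 8521 (median 6772). On it, 2 genes chosen after their values were seen were high in 3 of the 4. Rbfox3, which encodes the nuclear protein NeuN, was at 92.3, 89.2, 80.3 and 71.2 CPM against 38.2 to 71.5, with only male saline replicate 8 inside the range. Snap25, a synaptic fusion protein, was at 2027, 2571, 1605 and 2579 CPM against 1013 to 1993, with only male D1 replicate 8 inside it. The libraries in neither class had Rbfox3 of 67.4 to 97.5 CPM (median 73.7) and Snap25 of 1100 to 1905 CPM (median 1510). High Rbfox3 was thus not particular to the members.

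Taken singly, the members differed in how many of all genes lay outside the comparison range. Above every comparison library were 10.8% of genes in female D30 replicate 2, 7.32% in female saline replicate 5, 14.1% in male D1 replicate 8 and 7.9% in male saline replicate 8. Below every comparison library were 5.4%, 11.2%, 2.74% and 25.2% in the same order. These shares are the background for the counts of list genes in single members, and they depend on the scaling. With TMM the shares above were 8.06%, 9.92%, 7.76% and 15.9%, and the shares below 7.37%, 9.12%, 5.23% and 12.99%.

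None of the region and cell type lists was higher in all members. Of 24 lists, 0 had a summed CPM above every comparison library in all 4, and 4 did in 3 of the 4: midbrain GABA neurons, zona incerta and forebrain GABA neurons, hindbrain and glycine neurons, and the vesicular glutamate transporters. The dopamine neuron list was the 1 list whose sum was below every comparison library in all 4, also without Slc6a3 (1298, 1310, 1258 and 2656 CPM against 3970 to 9238). The large projection neuron list divided the members into a pair above its comparison range (female saline replicate 5 and male saline replicate 8) and 2 libraries inside it. Other lists and genes grouped the members differently.

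**Figure D2:**
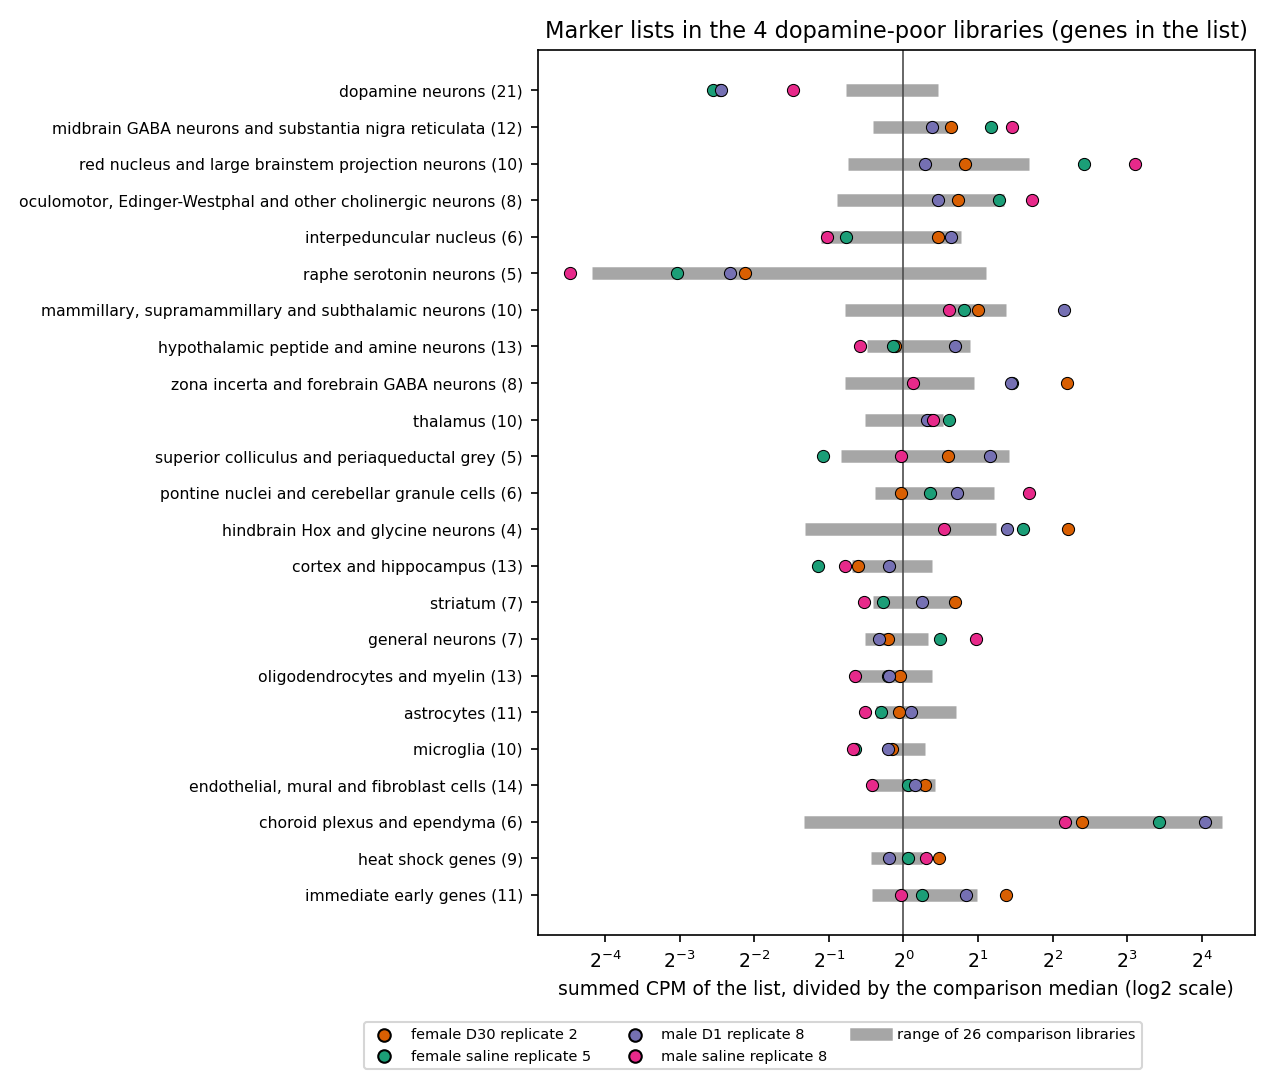
Summed CPM of 23 marker lists divided by the median of the 26 comparison libraries (x axis, log2 scale), with the number of genes tested in brackets. Grey bars span the comparison libraries and each coloured point is 1 dopamine-poor library. The large projection neuron list reaches 8.62 times the comparison median in male saline replicate 8 and 5.36 times in female saline replicate 5.

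The red nucleus and large projection neuron list summed to 2336 CPM in female D30 replicate 2, 7046 in female saline replicate 5, 1612 in male D1 replicate 8 and 11341 in male saline replicate 8, against 784 to 4209 (median 1315). In male saline replicate 8, 10 of its 10 genes were above every comparison library, and in female saline replicate 5, 9 of 10 were. In each of the other 2, 1 of 10 was. Beside these stand 7.9% of all genes in male saline replicate 8 and 7.32% in female saline replicate 5, and with TMM scaling both list counts were the same beside 15.9% and 9.92% of all genes.

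Nefh and Nefm, neurofilament subunits that build thick axons, carried most of this sum in female saline replicate 5 and male saline replicate 8 but not in the other 2. Nefh was at 379, 1516, 209 and 2624 CPM against 122 to 950 (median 230). Nefm was at 592, 2531, 297 and 3843 CPM against 177 to 1397 (median 394). Nefl, which was counted on the general neuron list, was at 786, 3219, 517 and 5201 CPM against 265 to 1895 (median 500). For all 3, female saline replicate 5 and male saline replicate 8 were above every comparison library and the other 2 were inside the range.

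Spp1, which encodes osteopontin and is strong in large brainstem projection neurons, was at 95.9, 468, 59.8 and 1519 CPM against 7.78 to 508 (median 47.2). Only male saline replicate 8 exceeded the comparison range, by 2.99 times its highest library, and female saline replicate 5 was above all comparison libraries but 1. Pvalb, a calcium buffer of fast-firing neurons of the red nucleus and the substantia nigra pars reticulata, was at 346, 985, 276 and 1810 CPM against 109 to 626 (median 224). Pou4f1, the transcription factor Brn3a of red nucleus and habenula, was at 0.44, 11.1, 0.20 and 14.7 CPM against 0.13 to 7.35 (median 1.28).

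Slc17a6, the vesicular glutamate transporter of midbrain and diencephalic neurons, was at 81.7, 123, 129 and 171 CPM against 9.93 to 107 (median 39.96), so 3 of the 4 exceeded the range. Scn4b, a sodium channel subunit linked to resurgent current, was at 72.8, 179, 34.6 and 179 CPM against 10.002 to 91.7. Vamp1, a vesicle fusion protein of fast synapses, was at 686, 1093, 546 and 1069 CPM against 244 to 680, which put female D30 replicate 2 just above the range as well. Emx2 (5.09 and 5.91 CPM against up to 4.28) and Kcna1 (135 and 104 CPM against up to 87.7) completed the list in female saline replicate 5 and male saline replicate 8.

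Genes off the list led in the same pair. Fam83a was at 27 CPM in female saline replicate 5 and 15.3 in male saline replicate 8, against at most 5.48 in the comparison libraries and 0.41 and 0.06 in the other 2. The calcium-binding protein gene Tesc was at 48.1 and 85.8 CPM in the pair against at most 31. The purinergic receptor gene P2rx6 was at 61.4 and 54.8 CPM against at most 26.9, Igfbp2 was at 258 and 240 against at most 130, and Hapln1, a link protein of the extracellular matrix nets around fast-firing neurons, was at 13.3 and 12.5 against at most 6.56. Prph, a neurofilament-related protein, was at 165 and 241 CPM against at most 101.

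Libraries outside the 4 also carried this pattern in part. Male saline replicate 8, female saline replicate 5 and male D1 replicate 9 had the 3 highest levels of Nefh, Nefm, Nefl and Pou4f1 of all 39 libraries. That all 3 had less Slc6a3 than any comparison library was fixed by the class limits. Their Th, which the rule did not use, was also below every comparison library. Among comparison libraries, female D30 replicate 3 had the highest sum of the large projection neuron list, with Nefh of 950 CPM, Spp1 of 508 and Slc6a3 of 1088. Male D1 replicate 1 followed with Nefh of 932 CPM, Spp1 of 354 and Slc6a3 of 757. Male D1 replicate 9, which was in neither class, had Nefh of 1134 CPM, Spp1 of 497 and Pou4f1 of 7.89.

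**Figure D3:**
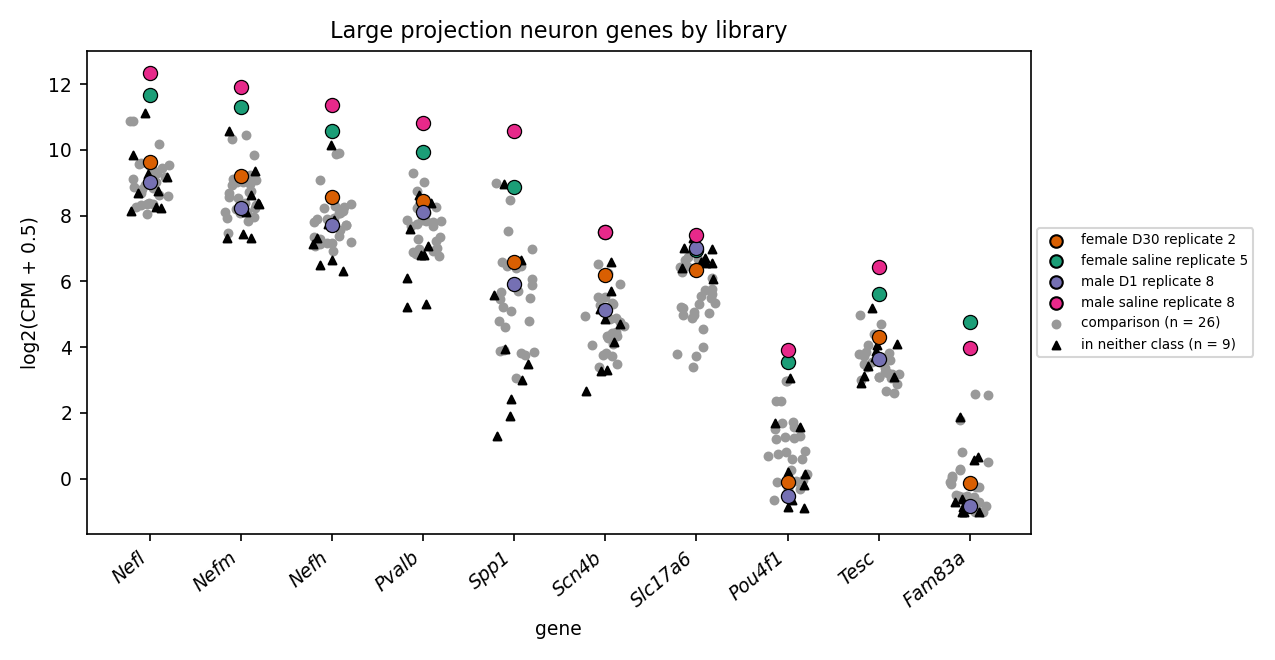
Level of 10 genes as log2(CPM + 0.5) (y axis) in all 39 libraries, 1 point per library. Female saline replicate 5 and male saline replicate 8 are the highest pair for 8 of the genes. In Spp1, female saline replicate 5 is 1 of several libraries near 500 CPM, and in Slc17a6 other libraries reach its level. The 2 points for Scn4b coincide at 179 CPM.

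GABA neuron genes separated the pair from each other. The list of midbrain GABA neurons and pars reticulata summed to 1246, 1809, 1043 and 2207 CPM against 606 to 1215 (median 802), but Pvalb made up 1810 of the 2207 CPM in male saline replicate 8. Gad1, which makes GABA, was at 185 CPM in female D30 replicate 2, 206 in female saline replicate 5, 122 in male D1 replicate 8 and 82.4 in male saline replicate 8, against 46.8 to 168 (median 97.3). Female D30 replicate 2 and female saline replicate 5 were above every comparison library, and male saline replicate 8 was inside the range. Gad2 in male saline replicate 8 was 29.4 CPM, below the lowest comparison library (36.6). Slc32a1, the vesicular GABA transporter, was 66.4 CPM there, also below its comparison range of 78.4 to 224. In that library 25.2% of all genes were below every comparison library, and 12.99% with TMM. Its Gad2 and Slc32a1 levels by TMM are not given here. The factors Gata3 (12.8 CPM) and Sox14 (6.53 CPM) of midbrain GABA neurons were inside the comparison ranges in female saline replicate 5, and over the whole list 0 of 12 genes were higher in all 4, with a median log2 ratio of 0.03.

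Female D30 replicate 2 was set apart by acetylcholine and glycine genes. Chat, which makes acetylcholine, was at 11.8 CPM there, 4.05 in female saline replicate 5, 1.99 in male D1 replicate 8 and 0.23 in male saline replicate 8, against 0.14 to 0.89 (median 0.39). Slc5a7, the choline transporter, was at 32.8, 10.9, 4.52 and 0.20 CPM against 0.26 to 2.04 (median 0.68). Slc18a3, the vesicular acetylcholine transporter, was at 16.5, 4.36 and 2.56 CPM in the first 3 and listed at 0 in male saline replicate 8, where 3 counts would be 0.14 CPM, against 0.08 to 1.01. Slc18a3 lies within the Chat locus, so reads may be shared between these genes. For all 3 genes, 3 of the 4 libraries were above every comparison library, and male saline replicate 8 was at or below the low end.

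Motor neuron factors were near 0 in the 4. Phox2a, a factor of oculomotor neurons, did not pass the filter on low values and was at most 0.21 CPM in the 4. Isl1, a motor neuron factor, was at 0.50 CPM in female D30 replicate 2 and at or under 0.09 in the others, against at most 0.39, so it was above every comparison library in female D30 replicate 2. Nos1, nitric oxide synthase, which mesopontine cholinergic neurons express together with Chat, was at 40.5, 12, 25.6 and 2.69 CPM against 3.20 to 17.6 (median 6.70). High Nos1 also occurred without high Chat. In male D30 replicate 7 and female saline replicate 3, which had high Pmch, Nos1 was 34.9 and 32.3 CPM and Chat 0.70 and 0.59. Slc6a5, the transporter of glycine neurons, was at 33.6, 5.37, 19.8 and 0.80 CPM against 0.69 to 18.2 (median 2.46). Female D30 replicate 2 and male D1 replicate 8 were thus above every comparison library for both Nos1 and Slc6a5. For Slc6a5 the margin of male D1 replicate 8 was narrow, 19.8 against at most 18.2 CPM. The TMM factor of that library was 1.10, and its Slc6a5 level by TMM is not given here.

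Glra1, a glycine receptor subunit, was at 35.8, 39.9, 19.3 and 21.1 CPM against 4.33 to 21.5. Hox genes, which mark the hindbrain below the isthmus, gave no such pattern. Of the 7 on the list, 5 did not pass the filter, and Hoxa2 and Hoxb3 were at most 0.31 CPM in the 4 against at most 0.56 and 0.68.

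Serotonin synthesis and uptake genes were low in all members, though not below the whole comparison range. Tph2, the serotonin synthesis enzyme of raphe neurons, was at 11.7, 4.99, 6.72 and 0.87 CPM against 1.38 to 149 (median 72.8). Only male saline replicate 8 was below every comparison library, and 20 or more of the 26 comparison libraries were above each of the others. Low Tph2 was not particular to the members, since the 9 libraries in neither class were at 0.21 to 8.25 CPM (median 0.64). Slc6a4, the serotonin transporter, was at 6.86, 2.83, 5.41 and 0.23 CPM against 0.44 to 95.8 (median 41.9). Of the 5 genes on the raphe list, 2 had a ratio above 0, Slc17a8 and Htr1a, and the receptor gene Htr1a was above every comparison library in male D1 replicate 8 (8.73 CPM against at most 8.30).

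Forebrain-type GABA factors were also high in female D30 replicate 2. All 8 genes of the zona incerta and forebrain GABA list were above every comparison library there, against 6 of 8 in male D1 replicate 8, 1 in female saline replicate 5 and 0 in male saline replicate 8. The list summed to 48.3, 29, 28.8 and 11.6 CPM against 6.11 to 20.4 (median 10.6). With TMM scaling the counts were 8 of 8 in female D30 replicate 2 and 4 of 8 in male D1 replicate 8, beside 8.06% and 7.76% of all genes.

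Most of those levels were low. Dlx1, a homeobox factor of forebrain GABA neurons, was at 3.49, 0.62, 2.80 and 0.41 CPM against 0.04 to 1.34. Meis2, a broader homeobox factor, was at 29.4, 25.1, 11.4 and 8.22 CPM against 2.51 to 15.2. For Dlx1, several libraries in neither class were higher still, up to 12.5 CPM in female saline replicate 3. Meis2, by contrast, was highest of the 39 libraries in female D30 replicate 2 and female saline replicate 5.

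Among transcription factors of the posterior hypothalamic and subthalamic border, Barhl1 and Barhl2 were high in male D1 replicate 8, though not among its 8 leading genes. Barhl1 was at 3.04, 0.58, 11.2 and 1.89 CPM against 0.31 to 7.70, and Barhl2 at 3.33, 0.27, 17.5 and 0.87 against 0.05 to 12.9. Both are homeobox factors of that territory, and male D1 replicate 8 was the only member above every comparison library for each.

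Over the mammillary, supramammillary and subthalamic list, 6 of 10 genes were above every comparison library in male D1 replicate 8, 4 in female D30 replicate 2, 2 in female saline replicate 5 and 1 in male saline replicate 8. Of all genes, 14.1% were above in male D1 replicate 8, 10.8% in female D30 replicate 2, 7.32% in female saline replicate 5 and 7.9% in male saline replicate 8. With TMM the share in male D1 replicate 8 was 7.76%, and the TMM counts of this list are not given here. The sums were 49.2, 43.1, 110 and 37.7 CPM against 14.3 to 63.8 (median 24.6). Foxb1, a mammillary factor, was 6.43 CPM in male D1 replicate 8, just under the highest comparison library (6.47). A library with high Pmch had higher levels of both homeobox genes, with Barhl1 of 14.9 and Barhl2 of 26.1 CPM in male D30 replicate 7. Barhl2 was also higher in female saline replicate 6 (19.3 CPM) and female saline replicate 3 (17.9 CPM). The list sum was higher in male D30 replicate 7 (156 CPM) and female saline replicate 3 (134 CPM). The other libraries in neither class summed to 42.9 to 105 CPM.

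Peptide and amine genes of the hypothalamus other than Pmch, which the rule used, overlapped between the groups as a sum. They summed to 21.3, 21.8, 22.6 and 17.5 CPM against 15.3 to 41.8 (median 23.1). Cartpt, a peptide gene of the Edinger-Westphal nucleus and hypothalamus, was at 40.9 CPM in male D1 replicate 8, inside its range of 3.96 to 84.1. Leading genes of male D1 replicate 8 included Hpca, a neuronal calcium sensor (236 CPM against at most 130), and Pnck, a calmodulin-dependent kinase (139 against at most 87.5). Tp53i11 (37.3 against at most 21.1), Kcp (18.8 against at most 10.01) and Card9 (14.7 against at most 8.77) were also among them.

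**Figure D4:**
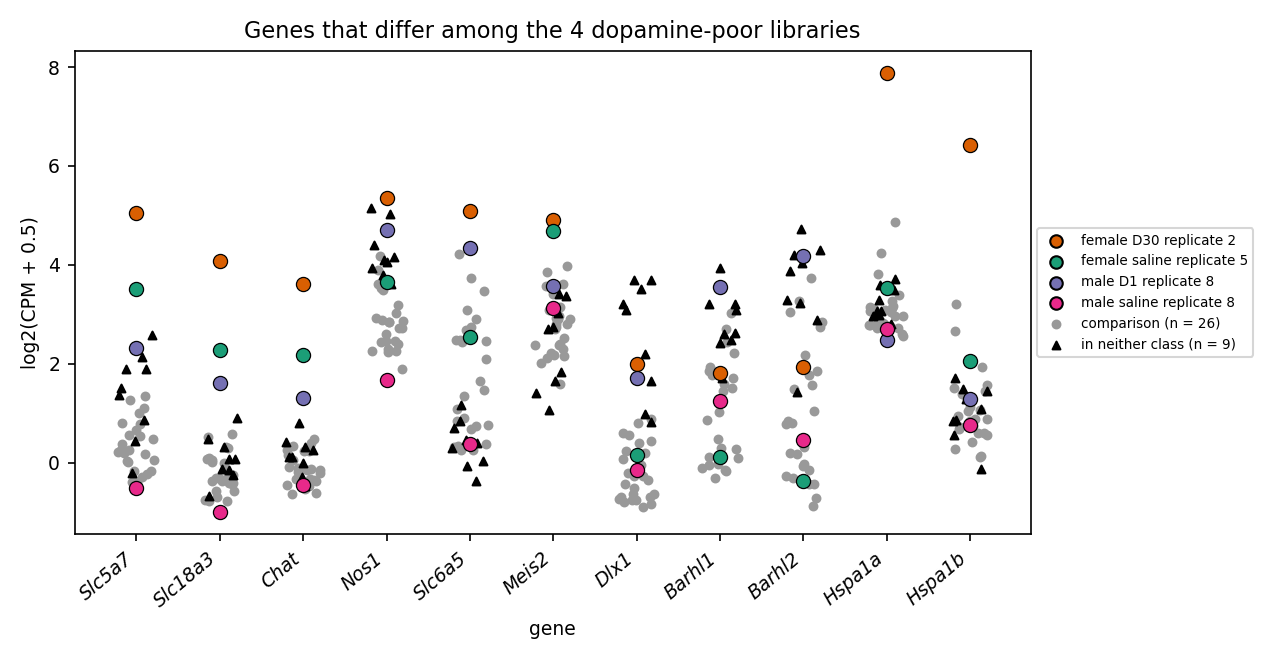
Level of 11 genes as log2(CPM + 0.5) (y axis) in all 39 libraries, 1 point per library. Female D30 replicate 2 is highest of all libraries for Slc5a7, Slc18a3, Chat, Nos1, Slc6a5, Meis2, Hspa1a and Hspa1b. Male D1 replicate 8 is at 11.2 CPM of Barhl1, second to male D30 replicate 7, and black triangles reach higher than the members for Dlx1, Barhl1 and Barhl2.

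Cortical markers were not higher as a list. The cortex and hippocampus list summed to 310, 214, 413 and 274 CPM against 292 to 616, with Lamp5 the 1 of 13 genes higher in all 4. Nrgn, a postsynaptic protein that made up much of this sum, was at 156, 97.7, 215 and 197 CPM against 210 to 554. The thalamic list summed to 167, 199, 162 and 170 CPM against 90.9 to 187 (median 130), so all 4 were above the median and female saline replicate 5 above every comparison library. Adarb1, an RNA-editing enzyme gene expressed well beyond thalamus, made up much of it at 99.2, 132, 89.9 and 112 CPM against 35.9 to 106. In this list, Synpo2 was lower in all 4 (0.69 to 1.85 CPM against 1.89 to 5.88), and Tcf7l2, its defining factor, overlapped (7.20 to 13.3 against 6.41 to 22.6).

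The list of pontine nuclei and cerebellar granule cells summed to 214 CPM in male saline replicate 8, above the comparison range of 51.3 to 155, and 65.2 to 109 in the others. Cbln1, a synaptic organiser of granule cells, made up 191 of the 214 CPM, and Gabra6, Cbln3 and Atoh1 did not pass the filter on low values.

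Glial markers overlapped for the most part. Oligodendrocyte genes summed to 35414, 31504, 31845 and 23359 CPM against 22638 to 47634, and 0 of 13 were higher or lower in all 4. Gfap, the astrocyte filament, was at 101, 90.0, 123 and 138 CPM against 119 to 1203 (median 322), while the astrocyte list overlapped. Microglial genes summed to 479, 338, 462 and 333 CPM against 457 to 652. In each of female saline replicate 5 and male saline replicate 8, 8 of 10 microglial genes were below every comparison library, beside 11.2% and 25.2% of all genes. With TMM scaling these were 7 and 6 of 10.

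Choroid plexus RNA, marked by the thyroxine carrier gene Ttr, was at 71.6, 152, 238 and 59.8 CPM against 0 to 279 (median 8.20). All 4 were above the comparison median and inside its range. Vascular and fibroblast genes summed to 791, 678, 720 and 486 CPM against 471 to 873, also inside the range.

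Heat shock genes summed above every comparison library (3396 to 5415 CPM) in female D30 replicate 2 at 6358 CPM and in male saline replicate 8 at 5649 CPM. Hspa1a, an inducible heat shock chaperone, was at 236 CPM in female D30 replicate 2 and 11.1, 5.10 and 6.06 in the other members, against 5.38 to 28.8 (median 7.36). Hspa1b was at 85.8, 3.66, 1.93 and 1.20 CPM against 0.59 to 8.78, and reads of these near-identical copies may be exchanged. All 9 heat shock genes on the list were above every comparison library in female D30 replicate 2, beside 10.8% of all genes, and 6 of 9 with TMM scaling. In male saline replicate 8, 3 of 9 were, beside 7.9% of all genes. With TMM the share of all genes there was 15.9%, and the TMM count of this list in that library is not given here. Hspa8, a constitutive chaperone, was at 3188 CPM in male saline replicate 8 against at most 2902. Fos, an activity-induced gene, was at 35.2, 11.5, 20.4 and 8.44 CPM against 5.27 to 25.7. Of 11 immediate early genes, 6 were above the range in female D30 replicate 2 and 4 in male D1 replicate 8, beside 10.8% and 14.1% of all genes. The Rn28s share of female D30 replicate 2, 0.07%, was inside the comparison range, and the part of RNA quality in these levels was not tested.

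The histocompatibility gene RT1-CE16 was at 53.9 CPM in male saline replicate 8 and 0.48 to 3.06 in the other members, against at most 1.93. Female saline replicate 1 (55.6 CPM) and male saline replicate 7 (38.5 CPM), both in neither class, were the other libraries above 3.06 CPM.

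Members were spread over treatments and sexes. Of 14 saline libraries, 2 were dopamine-poor, and of 25 morphine libraries, 2 were (two-sided Fisher's exact test, p = 0.609, adjusted over both tests 0.631). Of 15 female libraries 2 were, and of 24 male libraries 2 were (p = 0.631 by the same exact test, adjusted 0.631). Groups are small, and these tests could miss a difference. No female D1 or male D30 library was a member, so the comparisons of the study that held a member in each arm were male D1 against saline and female D30 against saline.

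Those 2 comparisons were tested across all 22493 genes with edgeR's quasi-likelihood test, two-sided, once with all 39 libraries and once without the 4. The genes given here for neighbouring regions were chosen after their values were seen. With all libraries, 2 genes passed an adjusted p of 0.05 in male D1 against saline (0.00889%), both higher in D1. Sult1a1, a sulfotransferase, rose by 1.47 on the log2 scale (SE 0.26, edgeR adjusted p = 0.045) and Dcst1 by 1.36 (SE 0.25, edgeR adjusted p = 0.045). Without the 4, 0 passed (1248 at an unadjusted p under 0.05), with Sult1a1 at 1.46 (SE 0.28, edgeR adjusted p = 0.0655) and Dcst1 at 1.28 (SE 0.27, edgeR adjusted p = 0.119). With single libraries left out in turn, 0 to 4 genes passed in males, and DESeq2 called 106. In female D30 against saline, 0 passed with all libraries (1381 at an unadjusted p under 0.05, 137 by DESeq2, 0 by limma) and 0 without the 4 (1721).

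Large projection neuron genes turned direction in males. Nefh averaged 510 ± 856 CPM (SD, n = 8) in male saline and 409 ± 363 (SD, n = 9) in male D1. Without the members it averaged 208 ± 56.8 (SD, n = 7) and 434 ± 380 (SD, n = 8). The fitted log2 difference of D1 from saline went from -0.51 (SE 0.61) to 1.05 (SE 0.43), with an edgeR adjusted p of 0.738 without the 4. Nefm went from -0.52 to 0.87, Spp1 from -0.89 (SE 0.97) to 1.87 (SE 0.81) and Pvalb from -0.69 to 0.54. None of these passed the test in either fit.

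In females, the same genes moved up when the members were left out. Nefh in D30 against saline went from a log2 difference of 0.06 (SE 0.76) to 1.30 (SE 0.54), and Spp1 from 0.70 (SE 1.21) to 2.99 (SE 1.05, edgeR adjusted p = 0.576). Acetylcholine genes went the opposite way, with Chat from 1.07 (SE 0.73) to -0.37 (SE 0.49) and Slc5a7 from 0.88 to -0.98. Hspa1a went from a difference of 2.59 (SE 0.52, edgeR adjusted p = 0.276) to 0.64 (SE 0.29, edgeR adjusted p = 0.626). None passed in either fit. Th and Slc6a3 differed by at most 0.13 on the log2 scale in either comparison and either fit, with SEs of 0.49 to 0.75.

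**Figure D5:**
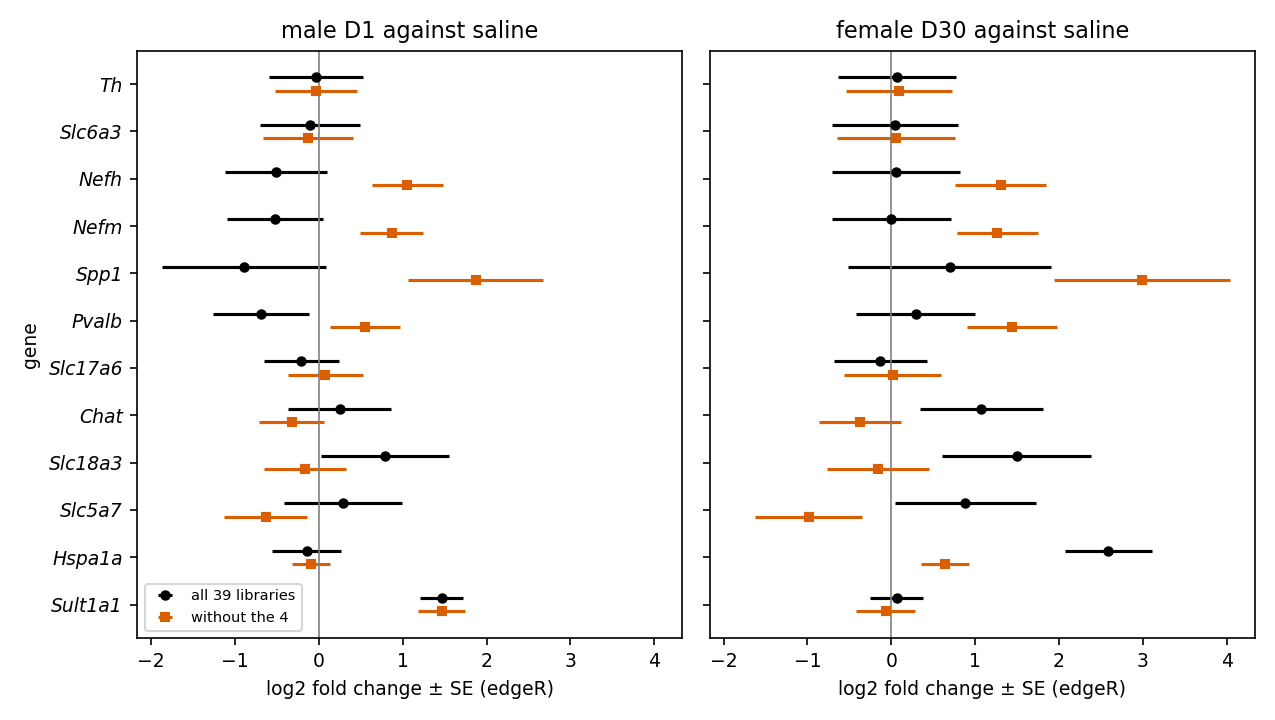
Log2 fold change against saline (x axis) with its SE from edgeR for 12 genes, in males at D1 (left) and females at D30 (right). Black circles use all 39 libraries and orange squares leave out the 4 dopamine-poor ones. Nefh in males moves from -0.51 to 1.05 and Hspa1a in females from 2.59 to 0.64, while Th and Slc6a3 stay near 0.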

How the data were processed

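RNA of 39 libraries was measured by bulk RNA sequencing. The authors deposited estimated counts, for 37403 genes. Trim Galore, kallisto and DESeq2 were used per the submitters' processing notes, without versions or roles. The genome build and annotation behind the values: not given in the sources used here. The table is named normalized, but its totals differ between libraries as depth does. Levels are CPM by column total. A gene was kept where 4 libraries or more had a rounded value of 10 or more (22493 genes). Ratios are of mean CPM, on the log2 scale with 0.5 CPM added, and a member is called higher or lower than the comparison where values do not overlap. Groups were tested with edgeR 4.0.16 (R 4.3.3) on the rounded values, TMM scaling, 1 mean for each of 6 groups and Benjamini-Hochberg adjustment, and counts of members with Fisher's exact test. DESeq2 1.42.0 and limma 3.58.1 (log2 of CPM + 1) were alternatives. The scripts were tested on simulated data. Replicate numbers did not pair the libraries.

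The members and the gene lists were chosen with earlier results of these data known. Named genes are Slc6a3, Th and Pmch, the 15 largest ratios in each direction among genes with at least 5 CPM, the 8 leading genes of each member with at least 10 CPM, and list members. Provisional symbols were not named, some genes are not reported here, and genes used from the lists beyond this were named after their values were seen. Gene types come from the RefSeq table of assembly GRCr8. Totals of 15.2 to 63.1 M limit the precision of genes below about 1 CPM. No columns were left without a sample.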

Additional observations from a re-analysis of the deposited data

Results flagged for a closer look

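Over the 4 members, 80 genes and list sums were searched for a library far from the other 3, by the share of the whole range that the gap takes (Dixon's criterion at the 95% level), and 5 were found. Chance alone gives such a result in about 1 in 20 groups of samples. Hspa1a had a gap of 0.974, with female D30 replicate 2 at 236 CPM. The dopamine neuron list had a gap of 0.935, with male saline replicate 8 at 2818 CPM and the others at 1348 to 1443, and Sncg made up 1170 of the 2818. Kcnab3 had a gap of 0.862, with female saline replicate 5 highest at 56.1 CPM. Foxb1 (0.860) and the sum of the mammillary, supramammillary and subthalamic list (0.840) had male D1 replicate 8 highest, at 6.43 and 110 CPM.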

How the results depend on the processing

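The number of genes higher in all 4 was 76, and 179 when the comparison was limited to the 11 libraries with names in the 300s and 400s, 321 against the comparison libraries of each member's own group, and 38 with a Slc6a3 limit of 350 CPM, an alternative chosen after seeing the data that adds male D1 replicate 9. Leaving out 1 member gave 95 to 246, with 135 without female D30 replicate 2, 217 without male D1 replicate 8 and 246 without male saline replicate 8. The number lower in all 4 was 232, and 407 and 499 under the first 2 of these alternatives. It was 235 to 498 with 1 member left out, the highest without male D1 replicate 8. Fewer libraries make non-overlap easier to reach. The remaining settings (TMM, median-ratio size factors, no filter, a Slc6a3 limit of 300 CPM, totals without ribosomal RNA) moved neither count by over 1.5 times. Per library, however, TMM changed the number of genes below every comparison library in male saline replicate 8 from 5660 to 2922, and those above from 1777 to 3581. In male D1 replicate 8 it changed those above from 3170 to 1745 and those below from 617 to 1177. Of 2322 alternative log2 ratios of 258 genes, 33 moved by more than the spread and 0 reversed among those called.

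The 2 genes of male D1 against saline became 0 without the 4, 0 without the filter, 0 by limma and 106 by DESeq2. Leaving out 1 library gave 0 to 4. It was 4 when D1 replicate 2 or 8 was dropped, 3 for D1 replicate 4, 1 for saline replicate 3, and 0 for every other male of the 2 groups. Female D30 against saline gave 137 by DESeq2 and 0 to 1 with 1 library left out (1 without female D30 replicate 1, and 1 without replicate 4). The causes were not tested. With the replicate number as a block, 0 genes passed in each. Libraries of the same number correlated at -0.149 to 0.196 in males and -0.235 to 0.025 in females, and correlated best with their own number in 1 of 8 and 0 of 5, so the numbers do not pair them. The exact tests by treatment and sex gave p of 0.686 for each without the Pmch limit and 1 for each with the limit of 350 CPM.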
